A study of Mus musculus with 12 samples.

Results

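The mouse mitochondrial genome carries 37 annotated genes, and every row whose symbol begins with mt- in the deposited expression table was taken, each Ensembl gene once. The rule gave 37 genes of the 38310 in that table, and all 37 are also among the 39179 counted genes. They comprise 13 messenger RNAs (mRNAs), 2 ribosomal RNAs (rRNAs) and 22 transfer RNAs (tRNAs). By the GENCODE M21 annotation of GRCm38, 28 are encoded on the plus strand of chromosome M and 9 on the minus strand, namely 8 tRNAs and mt-Nd6.

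The mitochondrial genome is a small circle that is copied into long precursor RNAs from both strands. Many of its tRNA genes sit between the other genes, and cutting the precursors at the tRNA ends releases the rRNAs and mRNAs. The mRNAs encode core subunits of the respiratory chain and of ATP synthase, while the rRNAs and tRNAs serve the organelle's own ribosomes.

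Total RNA after ribosomal RNA removal was sequenced from mouse embryonic stem cells in 12 libraries of 2 experiments. In the first, cells of BRE-GFP genotype (GFP driven by a BMP response element) and of mixed CBA and C57Bl/6 strain grew in fetal calf serum and LIF on feeder cells. Flow cytometry on SSEA1, a surface antigen of these cells, and on GFP then gave, in pairs at 3 times, BRE-negative (3 libraries) and BRE-positive (3 libraries) cells. In the second, cells of mixed CD-1, 129/Ola and C57Bl/6 strain grew in 2i medium and LIF on gelatin. They carried either floxed Smad1 and Smad5 alleles (Smad1/5 fl/fl, here FL, 2 libraries) or the deletion of both (Smad1/5 -/-, here KO, 4 libraries). FL and KO libraries came from 2 parental lines, and which library belongs to which line was not given in the sources used here. The labels call the samples replicates without describing separate cultures, so each p-value measures only the spread between these libraries.

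Library totals lay between 25862573 and 37319846 counts. Summed levels of 9 pluripotency markers lay between 4050 and 5140 on the counts-per-million scale (CPM, with library sizes scaled by edgeR's TMM method), and none of the 9 was at 0 in any group. FL libraries held 643 and 665 counts of Smad1, and the libraries labelled KO held 427, 619, 489 and 373. For Smad5 they held 1136 and 1153 against 880, 893, 1176 and 1046, so the groups overlapped. Counts over a whole gene need not show a deletion of part of it, and which exons were deleted was not given in the sources used here. KO therefore stands for the libraries labelled so. The mRNAs of feeder fibroblasts were present in the first experiment: 20 marker genes summed to 62.1 to 210 CPM in the BRE libraries, 14.0 to 18.7 in FL and 10.1 to 13.7 in KO. A bulk library cannot tell fewer cells of a type from less RNA per cell.

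The 6 tRNA genes with enough counts to be tested in all 3 comparisons are printed first, because their values recur in each of these. Each is the whole gene, 5′ to 3′ on its coding strand, from GENCODE M21 transcripts of GRCm38, with the anticodon in capitals. The anticodon triplet was set beforehand and placed where the bases on both sides formed the most stem pairs. mt-Tl1 lies at chrM:2676-2750, mt-Tm at chrM:3845-3913, mt-Tw at chrM:4950-5016 and mt-Tt at chrM:15289-15355, all on the plus strand. mt-Tq at chrM:3772-3842 and mt-Tp at chrM:15356-15422 lie on the minus strand.
mt-Tl1, leucine tRNA: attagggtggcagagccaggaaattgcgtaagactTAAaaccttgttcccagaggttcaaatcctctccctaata
mt-Tq, glutamine tRNA: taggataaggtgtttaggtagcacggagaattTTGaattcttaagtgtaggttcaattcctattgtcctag
mt-Tm, methionine tRNA: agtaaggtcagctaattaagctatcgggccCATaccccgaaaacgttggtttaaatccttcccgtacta
mt-Tw, tryptophan tRNA: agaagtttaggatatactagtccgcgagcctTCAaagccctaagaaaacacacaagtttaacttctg
mt-Tt, threonine tRNA: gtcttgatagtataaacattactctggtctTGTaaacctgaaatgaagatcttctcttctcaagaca
mt-Tp, proline tRNA: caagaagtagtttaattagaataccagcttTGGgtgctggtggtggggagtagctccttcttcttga

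mt-Nd3, an mRNA for a subunit of complex I, is shown beside its copy on chromosome 1, Gm28438, because its counts separate the experiments most. Both stretches are the first 60 bases of the annotated gene, at chrM:9459-9518 on the plus strand and at chr1:24613060-24613119 on the minus strand. Capitals mark position 3, counted from the 5′ end of the gene, where the difference T3C (mitochondrial gene to copy) is the single mismatch in 345 matched bases.
mt-Nd3: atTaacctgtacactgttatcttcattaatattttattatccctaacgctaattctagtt
Gm28438: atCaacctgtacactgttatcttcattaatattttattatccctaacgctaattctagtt

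Levels ran from mt-Rnr2, which ranked 1 by counts among the 39179 counted genes in each of the 12 libraries, to 5 genes without a single count. Per length, on the deposited transcripts-per-million (TPM) scale, mt-Rnr2, the large ribosomal RNA, stood first with a mean of 215900 over the 12 libraries. mt-Rnr1, the small ribosomal RNA, followed at 15890. Among the mRNAs, mt-Co1 (a catalytic subunit of cytochrome c oxidase, complex IV) led with 8176 TPM. It was followed by mt-Nd1 (2711), a subunit of complex I, and mt-Cytb (833), the cytochrome b of complex III. The other complex I mRNAs were lower, with mt-Nd2 at 562, mt-Nd5 at 346, mt-Nd6 at 137 and mt-Nd4 at 109 TPM. The ranges over the 12 libraries did not overlap between mt-Rnr2 and mt-Rnr1, mt-Co1 and mt-Nd1, or mt-Nd1 and mt-Cytb. They overlapped between mt-Rnr1 and mt-Co1 and between all neighbours from mt-Cytb down to mt-Nd4. The most abundant tRNAs per length were mt-Tw (91.4 TPM), mt-Tl1 (72.7), mt-Tp (58.6), mt-Tt (44.2) and mt-Tq (43.0), all below mt-Nd4 in the mean.

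Few tRNAs were counted often. The 22 tRNAs took 3529 counts over the 12 libraries together, against 2511020 for the mRNAs and 50921831 for the rRNAs. In 12 of the 22 no library reached 10 counts, and 3 of these, mt-Ts1, mt-Td and mt-Tk, had 0 in every library. Of the 13 mRNAs, 5 stayed under 10 counts in every library, and 2 of them, mt-Atp8 and mt-Nd4l, were at 0 throughout. The deposited TPM values add 1 count to every gene, so the 5 genes at 0 counts still carry a TPM above 0. A count assigned to a tRNA cannot be told apart here from a read of an uncut precursor.

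**Figure D1:**
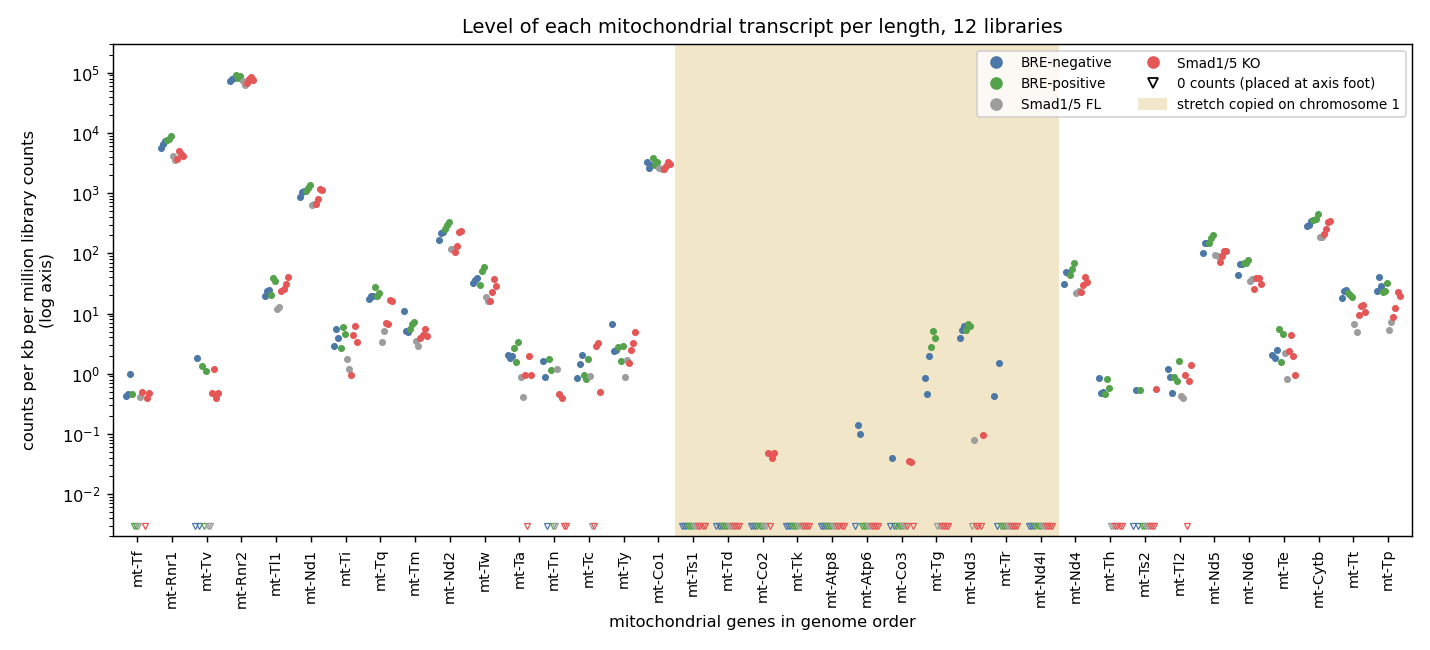
CPM per kb of gene (unscaled library totals, log axis) for the 37 mitochondrial genes in genome order, 1 point per library, coloured by group, with triangles at the axis foot for 0 counts. The shaded genes lie wholly inside the stretch copied on chromosome 1, drawn from its first to its last matched piece. Of these 11, 10 had at most 13 counts in any library.

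The mRNAs fell into a counted set and a nearly uncounted set. The border followed a stretch of the mitochondrial genome of which the nuclear genome also carries pieces. Transcript sequences were searched for matches to the 37 genes at 95% identity or more over 200 bases or more, which gave 11 annotated nuclear pseudogenes. Of these, 7 lie side by side on chromosome 1 (chr1:24611535-24616197, minus strand). Their matches, at 99.7% to 100% identity, are 7 pieces between chrM:6390 and chrM:11042. The span from the first to the last piece is called the copied stretch here. In all, 11 members lie wholly inside this stretch, 6 mRNAs and 5 tRNAs. The 5 tRNAs and mt-Atp8 had no match of their own, and no tRNA is long enough for the 200-base minimum. Bases between the pieces were not searched. The 11 members took 422 counts together over the 12 libraries, and 374 of these belonged to mt-Nd3. Apart from mt-Nd3, no member inside had more than 13 counts in any library.

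Inside the stretch, mt-Co2 and mt-Co3 (subunits of complex IV) had at most 1 count in any library, and mt-Atp6 (a subunit of ATP synthase) at most 3. Apart from its last bases, each of these 3 genes recurs on chromosome 1 without a mismatch (681 bases for mt-Co2, 783 for mt-Co3 and 678 for mt-Atp6). By contrast the 7 mRNAs that lie outside or partly outside had between 404 and 192766 counts per library. The 17 tRNAs outside had at most 125. How reads with more than 1 equal match were counted was not given in the sources used here. Its part in these counts was not tested.

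Of the counted mRNAs, 2 are partly inside. Bases 1063 to 1545 of mt-Co1 match Gm29216 with a single mismatch, A1066T (mitochondrial gene to copy, counted from the 5′ end of mt-Co1). Bases 1 to 876 of mt-Nd4, of 1378, match Gm28439 without a mismatch. With the matched bases left out of the length, an alternative chosen after seeing the data, the median level rose from 37.3 to 102 CPM per kb for mt-Nd4 and from 2950 to 4280 for mt-Co1. This alternative keeps all counts, and so assumes that none came from the matched bases, which was not tested. Under that assumption mt-Nd4 was close to mt-Nd5 (108), which has no match on chromosome 1, and no cause can be read from this. Its place at the foot of the mRNA order therefore depends on how the copied bases are treated.

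The copies that have a row in the deposited counts drew few counts. Gm13340 on chromosome 2, 97.6% identical to mt-Co1 over the whole gene, had 51 to 109 counts per library, against 115458 to 192766 for mt-Co1. Gm13341, 95.9% identical to mt-Co2, had 5 to 20. Among the 7 chromosome 1 copies, only Gm10222 has a row in the deposited counts, so how many reads the others drew is not known. Gm10222 matches mt-Nd4l and had 0, 0 and 0 counts in BRE-negative, 1, 0 and 1 in BRE-positive, 1 and 4 in FL and 0, 3, 11 and 7 in KO libraries.

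Mitochondrial RNA made up 10.9% to 15.8% of the counts of a library. The rRNA share was 12.3%, 13.1% and 13.9% in BRE-negative replicates 1 to 3 and 15.1%, 13.7% and 14.6% in BRE-positive replicates 1 to 3. It was 12.1% and 10.4% in FL and 11.2%, 13.1%, 13.7% and 12.5% in KO. Both FL libraries stood below the lowest BRE-negative library, while BRE-negative and BRE-positive, and FL and KO, overlapped. The protocol text describes several ribosomal RNA depletion kits, with and without removal of mitochondrial rRNA, and does not say which was used, so these shares are of what remained after depletion.

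The balance of the rRNAs separated the experiments. This balance, and the rRNA levels and calls below, are also of what remained after depletion, whose part was not tested. mt-Rnr1 counts were 4.57%, 5.07% and 5.33% of mt-Rnr2 counts in BRE-negative replicates 1 to 3 and 5.07%, 5.79% and 6.16% in BRE-positive replicates. In the 2i experiment they were 3.36% and 3.44% in FL and 3.32%, 3.72%, 3.22% and 3.33% in KO. Every BRE library stood above every FL and KO library, and within each pair the BRE-positive library was above the BRE-negative one. The means were 3.40% ± 0.056 (SD, n = 2) in FL and 3.40% ± 0.22 (SD, n = 4) in KO.

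**Figure D2:**
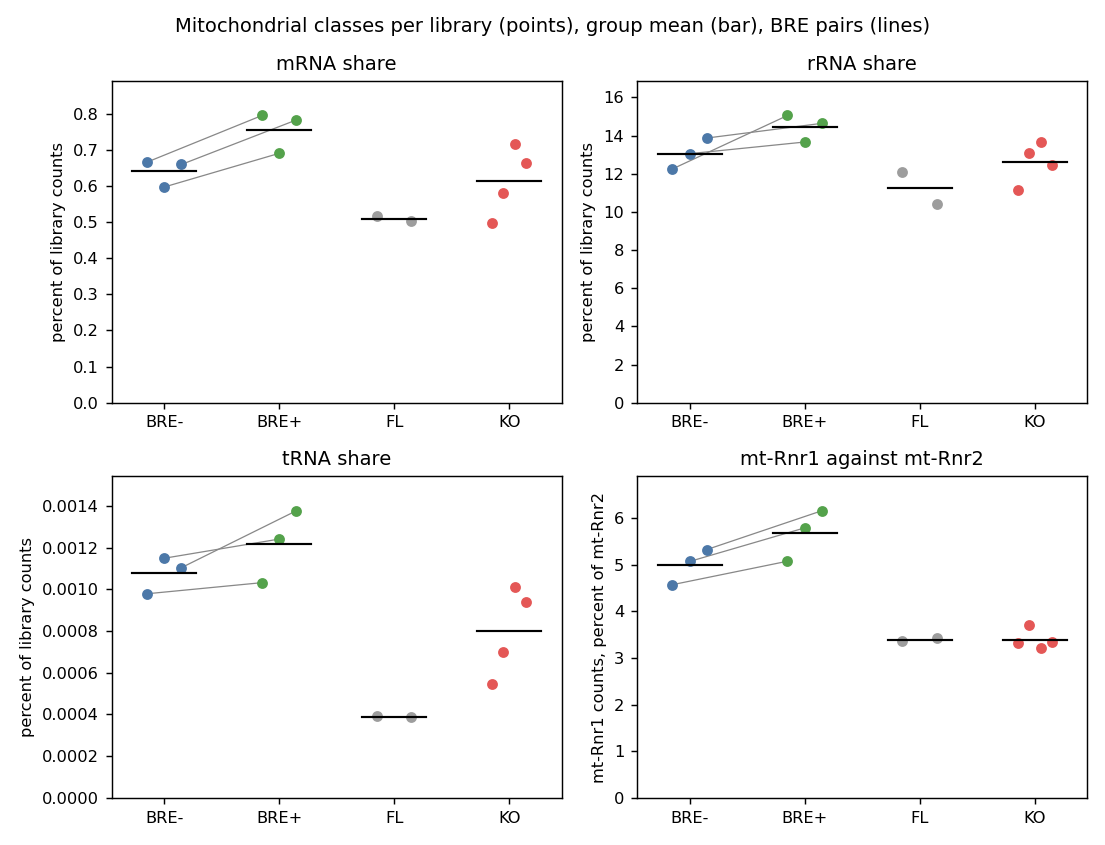
Share of library counts (percent) taken by mitochondrial mRNAs, rRNAs and tRNAs, and mt-Rnr1 counts as percent of mt-Rnr2 counts. Points are libraries, bars are group means and lines join the BRE pairs. In each panel the 3 BRE-positive libraries lie above their BRE-negative partners.

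The mRNA share of the library was 0.67%, 0.60% and 0.66% in BRE-negative replicates 1 to 3 and 0.80%, 0.69% and 0.78% in BRE-positive replicates. It was 0.52% and 0.50% in FL and 0.50%, 0.58%, 0.72% and 0.66% in KO. All BRE-positive libraries exceeded all BRE-negative libraries, which in turn exceeded both FL libraries, and the KO libraries ran from just below FL into the BRE-positive range. mt-Co1 alone held 65.9% to 77.5% of the mRNA counts. mt-Nd6, the mRNA of the opposite strand, equalled 0.25% to 0.58% of the counts of the plus-strand mRNAs and 8.28% to 12.9% of those of mt-Nd5, whose end it overlaps by 14 bases. Whether the counting used strand was not given in the sources used here. Reads of mt-Nd6, or of minus-strand tRNAs, and of RNA antisense to them therefore cannot be told apart.

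The 3 shares, the rRNA balance and the mt-Nd6 ratio were compared between groups with exact two-sided permutation tests, 15 in all. The smallest p that the design allows was 0.25 for the BRE pairs, 0.0667 for KO against FL and 0.1 for BRE-negative against FL, so none could pass 0.05. Benjamini-Hochberg adjusted p-values of these exact tests were 0.333 to 1.0.

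BRE-positive cells carried more of several respiratory chain mRNAs than BRE-negative cells. In the edgeR quasi-likelihood fit with the pair as a block, 6 of the 16 members tested were higher and 0 lower at an adjusted p under 0.05, where 1.96% of all 15435 genes tested were higher, 1.02% lower and 2.97% called in either direction. The 6 were mt-Rnr1 and the mRNAs mt-Nd1, mt-Nd2, mt-Nd4, mt-Nd5 (complex I) and mt-Cytb (complex III). The median log2 fold change of the 16 was 0.30, beside -9e-04 over all genes.

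mt-Nd2 had the largest fold change of the 6. Its level was 172, 229 and 230.1 CPM in BRE-negative replicates 1 to 3 and 259, 305 and 332 CPM in BRE-positive replicates. Every BRE-positive library was above every BRE-negative one, with a log2 fold change of 0.52 ± 0.05 (SE), or 1.44-fold, and an edgeR adjusted p of 0.000295. mt-Cytb stood at 319.8, 344 and 392 CPM against 406, 424 and 511 CPM, also without overlap (0.36 ± 0.05, edgeR adjusted p = 0.00254). mt-Rnr1 was at 5229, 6483 and 7000 CPM against 7214, 7484 and 8295 CPM, again without overlap (0.32 ± 0.06, edgeR adjusted p = 0.0109). The share of all genes without overlap between these groups was not counted.

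For the other called mRNAs the groups overlapped, and the difference lay within the pairs. mt-Nd5 was at 181, 278 and 275 CPM in BRE-negative and 274, 326 and 359.9 CPM in BRE-positive replicates (0.42 ± 0.06, edgeR adjusted p = 0.00417). mt-Nd4 was at 41.3, 69.3 and 65.0 CPM against 60.1, 76.9 and 91.4 CPM (0.40 ± 0.07, edgeR adjusted p = 0.00897). mt-Nd1 was at 793, 1021 and 1054 CPM against 1047, 1176 and 1273 CPM (0.31 ± 0.05, edgeR adjusted p = 0.00919). In 3 of 3 pairs the BRE-positive library held more of all 6 called members. The paired fit that called them favours such members, so this adds no support. BRE-negative replicate 1 was the lowest library of its group for each of the 6.

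The other 10 tested members did not pass. mt-Co1 was at 4972, 4167 and 4531 CPM in BRE-negative and 5809, 4566 and 5042 CPM in BRE-positive replicates, higher in 3 of 3 pairs by 0.18 ± 0.05 on the log2 scale (edgeR adjusted p = 0.0716). mt-Rnr2 gave 0.13 ± 0.06 (edgeR adjusted p = 0.275), and its pairs differed by 0.31, 0.02 and 0.04. mt-Nd6 was at 22.2, 35.6 and 33.8 CPM against 35.2, 35.2 and 38.7 CPM, higher in 2 of 3 pairs (0.29 ± 0.10, edgeR adjusted p = 0.138). mt-Nd3 had 47, 58 and 65 counts against 59, 88 and 55 (0.26 ± 0.19, edgeR adjusted p = 0.511). The 6 tested tRNAs had log2 fold changes from -0.27 ± 0.21 for mt-Tp to 0.44 ± 0.19 for mt-Tl1, with edgeR adjusted p-values of 0.226 to 0.906.

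These calls rest on the pairing: without the block edgeR called 0 members and 0 genes, with 343 genes at an unadjusted p under 0.05. Leaving out pair 1, 2 or 3 gave 9, 7 and 4 members, all higher. Feeder markers moved the opposite way, with 5 of 19 tested lower and 0 higher in BRE-positive cells and summed levels of 62.1 to 181 CPM against 101 to 210 CPM. None of the 20 was at 0 in either group, and their part in the result was not tested. Log2 fold change also rose with exon length across 13632 nuclear protein-coding genes (Spearman's rho 0.272, across genes, which are not independent replicates). The 1806 of these nuclear genes with at most 2000 bases, the range in which all members lie, had a median of -0.07, with 3 called higher and 53 lower, and offsets for length and GC content gave 7 members higher and 0 lower.

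**Figure D3:**
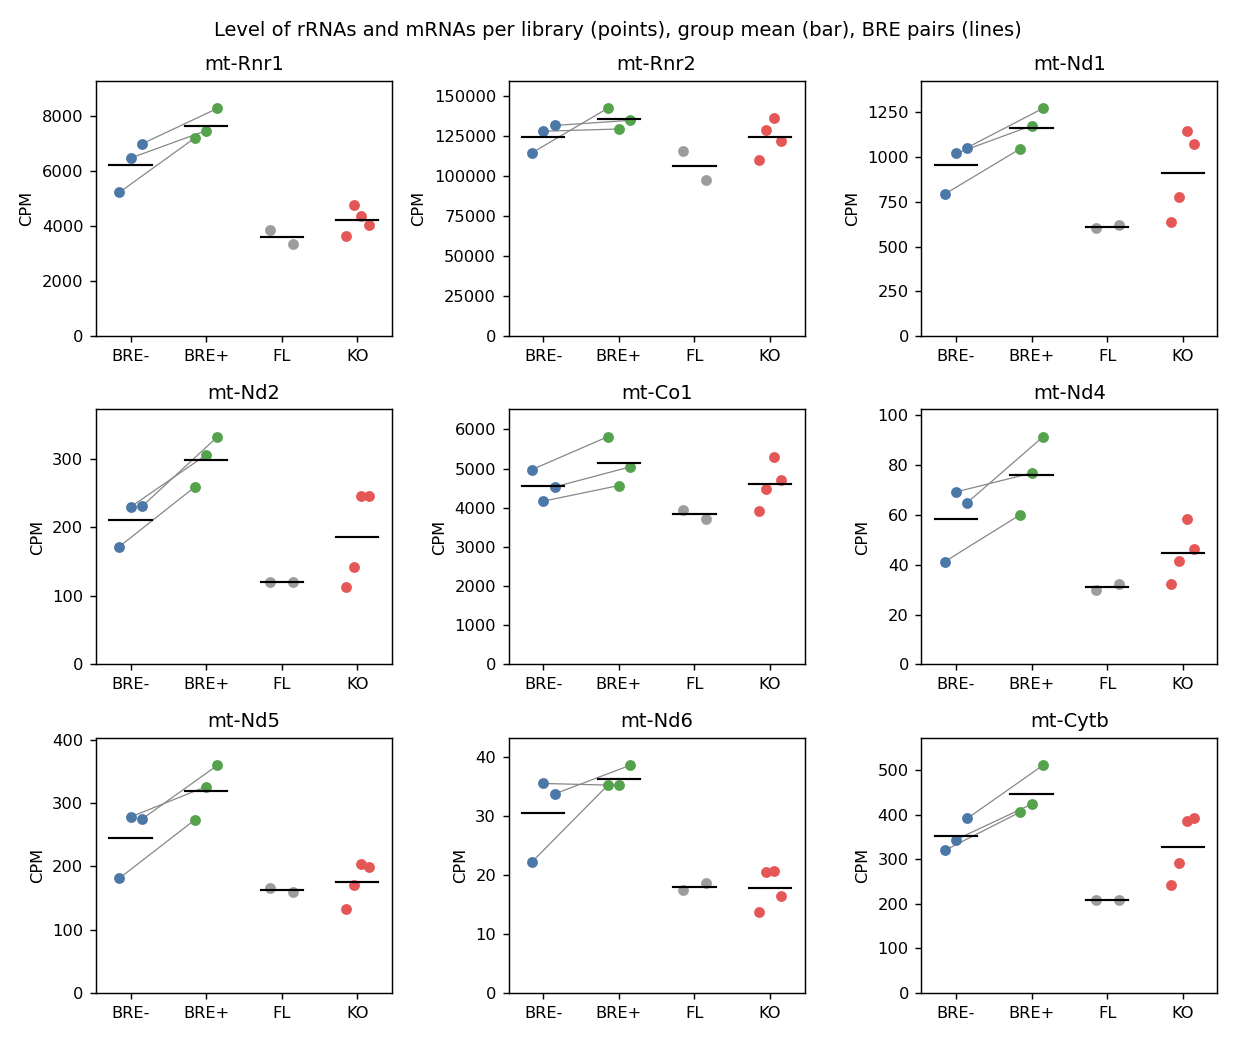
Levels (CPM, TMM-scaled over the 12 libraries, axes from 0) of the 2 rRNAs and 7 mRNAs counted in every library. Points are libraries, bars are group means and lines join the BRE pairs. mt-Nd2, mt-Cytb and mt-Rnr1 show no overlap between BRE-negative and BRE-positive libraries, and KO libraries spread most for mt-Nd2.

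Deletion of Smad1 and Smad5 was compared in the 2i experiment. The KO libraries were counted as independent, although replicates 1 and 2, and replicates 3 and 4, were more alike over all genes than across. This limits the SEs and p-values below. Of 16 members tested in the libraries labelled KO against FL, 1 was higher and 0 lower, where 1.85% of 15933 genes were higher, 3.18% lower and 5.03% called in either direction. The median log2 fold change was 0.60 over the 16 members and 0.01 over all genes. mt-Ti, mt-Tq and mt-Tm reached the count filter only through the KO libraries. Over the other 13 members the median was 0.57, with 1 called.

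The called member was mt-Tl1, the leucine tRNA that lies directly between mt-Rnr2 and mt-Nd1. FL libraries held 30 and 35 counts of it and KO replicates 1 to 4 held 54, 69, 86 and 94, which is 0.89 and 0.95 CPM against 1.83, 1.94, 2.37 and 3.11 CPM. The groups did not overlap, and the log2 fold change was 1.33 ± 0.30 (SE), or 2.51-fold, with an edgeR adjusted p of 0.0459. The call lay close to the threshold and held in 1 of the 6 fits that leave out 1 library, the one without KO replicate 1. It was lost without FL replicate 1 or 2 or without KO replicate 2, 3 or 4, and the log2 fold change lay between 1.14 and 1.42 over the 6 fits.

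Of the mRNAs, mt-Cytb came nearest to the threshold. It was at 208.0 and 208.3 CPM in FL and 242, 292, 385 and 394 CPM in KO, without overlap, at a log2 fold change of 0.66 ± 0.19 and an edgeR adjusted p of 0.0923. mt-Nd1 (606 and 618 CPM against 639.8, 776, 1145 and 1076 CPM) and mt-Nd4 (30.0 and 32.1 against 32.4, 41.4, 58.2 and 46.5 CPM) did not overlap either, and did not pass (0.57 ± 0.22 and 0.53 ± 0.20, edgeR adjusted p = 0.174 and 0.176). mt-Nd2 overlapped, at 120.2 and 120.8 CPM in FL against 112, 142, 245 and 246 CPM in KO (0.63 ± 0.31, edgeR adjusted p = 0.271). KO replicates 3 and 4 held the highest levels of mt-Nd2 and mt-Cytb, and FL replicates lay close together. How many of all genes were without overlap between FL and KO was not counted.

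The remaining members did not pass either. mt-Nd5 was at 166 and 160.0 CPM in FL and 132, 169.9, 203 and 198 CPM in KO (0.11 ± 0.16, edgeR adjusted p = 0.718). mt-Nd6 was at 17.5 and 18.6 CPM against 13.7, 20.5, 20.8 and 16.4 CPM (-0.01 ± 0.18, edgeR adjusted p = 0.973). mt-Co1 gave 0.27 ± 0.12, mt-Rnr1 0.23 ± 0.11 and mt-Rnr2 0.22 ± 0.11, and none passed (edgeR adjusted p of 0.215 to 0.279). The other 6 tested tRNAs had log2 fold changes between 0.57 ± 0.40 for mt-Tm and 1.49 ± 0.54 for mt-Tq, and none passed (edgeR adjusted p of 0.114 to 0.43).

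**Figure D4:**
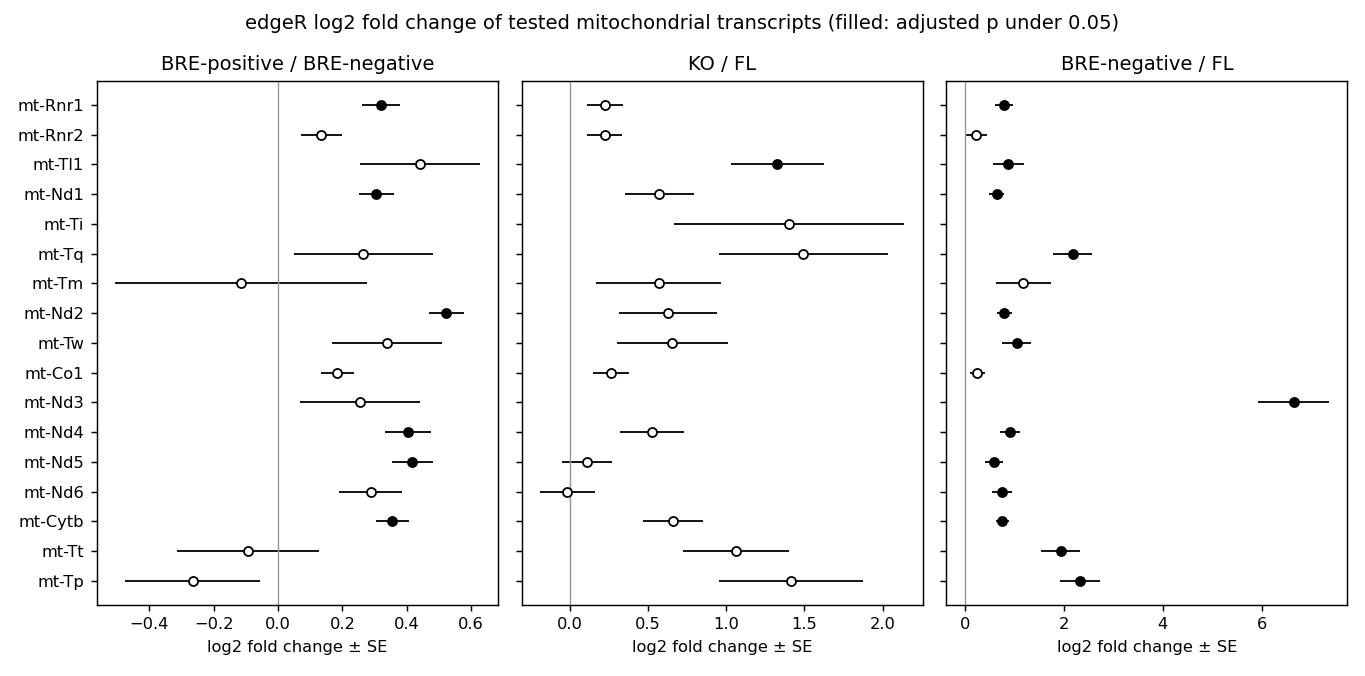
Log2 fold change ± SE from edgeR for each tested member, in genome order, for BRE-positive over BRE-negative, KO over FL and BRE-negative over FL libraries. Filled points have an adjusted p under 0.05 over all genes tested, which 6, 1 and 13 members reached. Among the 13, mt-Nd3 and mt-Tq reached the count filter only through the BRE-negative libraries. The fitted value of mt-Nd3 in the last panel rests on FL libraries at 0 and 1 counts.

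The experiments were set against each other through BRE-negative and FL libraries, the cells without reporter activity and without a deleted Smad locus. Medium, feeder cells, strain, line, sorting and experiment all differ between them and cannot be told apart. Of 16 members tested, 13 were higher in BRE-negative cells and 0 lower, where 22.3% of 16360 genes were higher, 23.4% lower and 45.7% called in either direction. The median log2 fold change was 0.84 over the members and -0.005 over all genes. mt-Nd3, mt-Tq and mt-Tm reached the count filter only through the BRE-negative libraries, so their fold changes and calls support nothing here. Of the other 13 members 11 were called, with a median of 0.79. mt-Rnr2 (0.23 ± 0.23, edgeR adjusted p = 0.444), mt-Co1 (0.25 ± 0.15, edgeR adjusted p = 0.198) and mt-Tm (1.18 ± 0.55, edgeR adjusted p = 0.108) did not pass. Feeder markers moved in the same direction, with 18 of 19 tested higher in BRE-negative cells, 0 lower and a summed level of 101 to 210 CPM against 14.0 to 18.7 CPM, and their part in the result was not tested.

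Among the mRNAs outside or partly outside the copied stretch, the called log2 fold changes were 0.59 ± 0.19 for mt-Nd5, 0.64 ± 0.15 for mt-Nd1, 0.76 ± 0.13 for mt-Cytb, 0.76 ± 0.21 for mt-Nd6, 0.80 ± 0.15 for mt-Nd2 and 0.91 ± 0.21 for mt-Nd4 (edgeR adjusted p of 0.00176 to 0.0304). mt-Rnr1 gave 0.79 ± 0.18 (edgeR adjusted p = 0.00714). In each of these the 3 BRE-negative libraries stood above both FL libraries, a separation whose share over all genes was not counted. Without either FL library alone, 7 members passed, all higher. Over the 5 fits that leave out 1 library, the log2 fold change lay between 0.74 and 0.94 for mt-Nd2. It lay between 0.68 and 0.84 for mt-Cytb, between 1.72 and 2.16 for mt-Tt and between 2.095 and 2.53 for mt-Tp. The calls of mt-Rnr1, mt-Nd1, mt-Nd4, mt-Nd5, mt-Nd6, mt-Tw and mt-Tl1 did not hold in all of these fits. Their log2 fold changes lay between 0.50 and 0.78 for mt-Nd5, 0.64 and 0.95 for mt-Nd6 and 0.58 and 0.78 for mt-Nd1. They lay between 0.79 and 1.13 for mt-Nd4, 0.68 and 0.92 for mt-Rnr1, 0.94 and 1.17 for mt-Tw and 0.82 and 1.01 for mt-Tl1.

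Of the 6 tested tRNAs, 5 were called, at low counts. mt-Tp had 56, 84 and 58 counts in BRE-negative and 12 and 17 in FL libraries (log2 fold change 2.33 ± 0.40, edgeR adjusted p = 0.00184). mt-Tq had 44, 44 and 42 against 8 and 13 counts, with a fitted value of 2.18 that carries the limit given above. mt-Tt had 42, 49 and 50 against 15 and 12 (1.94 ± 0.39, edgeR adjusted p = 0.00387). The groups did not overlap for mt-Tp and mt-Tt. mt-Tw (75, 77 and 77 against 42 and 39 counts, 1.06 ± 0.29) and mt-Tl1 (51, 56 and 55 against 30 and 35 counts, 0.88 ± 0.32) had smaller fold changes (edgeR adjusted p = 0.0178 and 0.0478). BRE-positive libraries held 48 to 58 counts of mt-Tp, 41 to 62 of mt-Tq and 33 to 51 of mt-Tt. KO libraries held 18 to 58, 15 to 44 and 19 to 34, and all were above both FL libraries.

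mt-Nd3, whose start is printed above, had the largest fold change of the tested members. It had 47, 58 and 65 counts in BRE-negative and 59, 88 and 55 in BRE-positive replicates, but 0 and 1 in FL and 0, 0, 0 and 1 in KO. All 6 BRE libraries stood far above all 6 libraries of the 2i experiment. These are counts assigned to the gene, whose 345 matched bases differ from Gm28438 at position 3 alone. The part of that base, of strain and of reads with several matches in this split was not tested. Per library count the pooled ratio was 198 for the BRE against the FL and KO libraries, from 372 and 2 counts, with an exact 95% interval of 54.3 to 1640 that covers counting error only. For BRE-negative against FL the counts were 170 and 1, and the ratio 122 (21.6 to 4840). Both ratios describe counts picked out because they separate the experiments most, and neither interval is a test of the split. The fitted log2 fold change of 6.65 depends on the prior count and is no bound, and its p-value is not given because mt-Nd3 entered the fit only through the group where it is high.

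mt-Tg, the glycine tRNA directly upstream of mt-Nd3, showed the same split at lower counts. The part of strain and of reads with several matches was not tested here either. It had 2, 1 and 4 counts in BRE-negative, 6, 13 and 7 in BRE-positive and 0 in all 6 FL and KO libraries. With 3 counts set as a floor over those 6 libraries, the 33 counts of the BRE libraries were 11.7-fold higher per library count. That value is no bound, as it leaves out error in the 33 counts and the spread between libraries. Most of the 33 came from BRE-positive libraries. mt-Tg was named after its values were seen and lies directly beside mt-Nd3, so it adds no separate support. Other genes of the copied stretch had too few counts in either experiment to be compared.

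**Figure D5:**
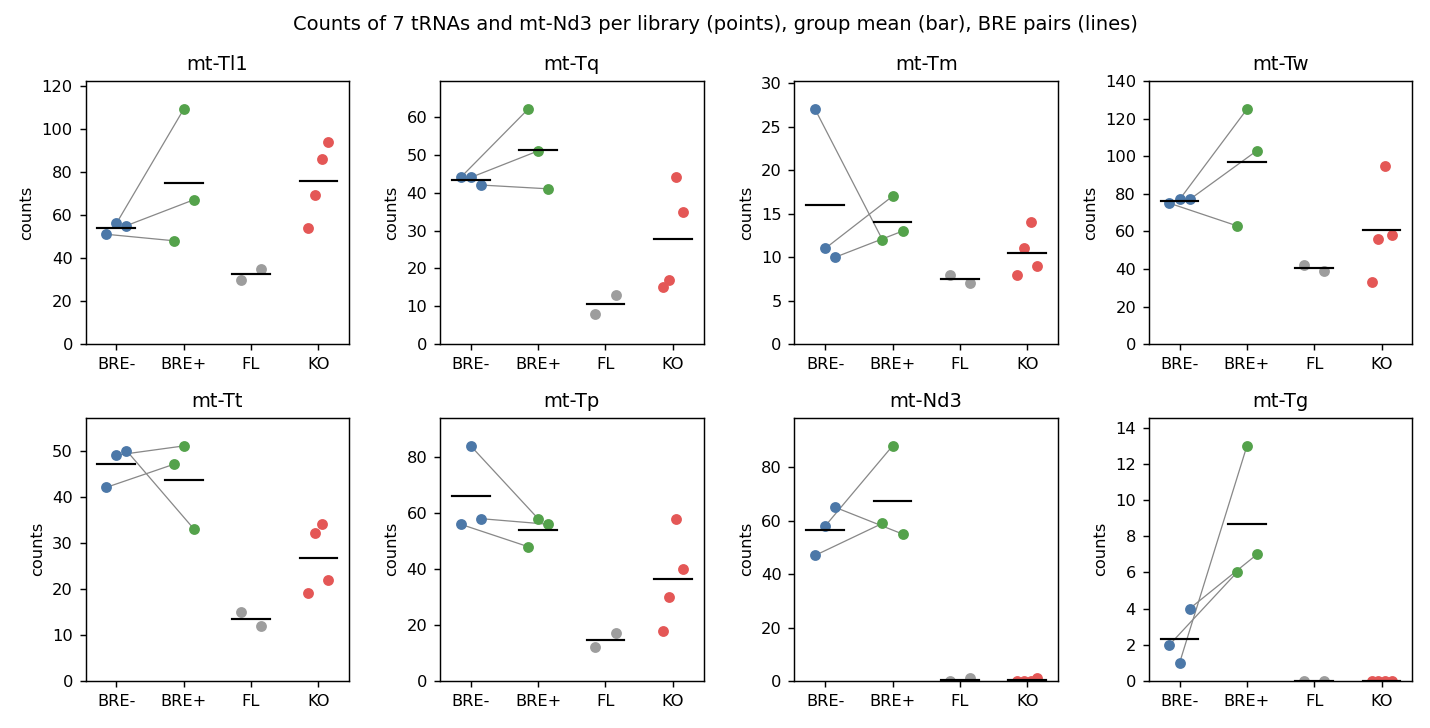
Raw counts per library of the 6 tested tRNAs, mt-Nd3 and mt-Tg. Points are libraries, bars are group means and lines join the BRE pairs. FL libraries lie at or below 42 counts for every gene shown, and mt-Nd3 and mt-Tg have at most 1 count in any FL or KO library.

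Nuclear genes that act on mitochondrial RNA were read beside these results. Of 24 tested genes for transcription and replication of mitochondrial DNA, edgeR called none in BRE-positive against BRE-negative cells or in KO against FL. Over all genes 2.97% and 5.03% were called. At an unadjusted p under 0.05 edgeR gave 3 and 4 of the 24, beside 2817 of 15435 and 3646 of 15933 genes. DESeq2 called 0 and 1 of the 24. Polrmt, the mitochondrial RNA polymerase, gave -0.05 ± 0.06 and 0.15 ± 0.07 in these comparisons, and Tfam, which packages the genome and starts transcription, gave -0.03 ± 0.05 and 0.15 ± 0.06 (edgeR adjusted p of 0.18 to 0.817). In BRE-negative against FL 2 of the 24 were higher and 7 lower, where 22.3% of all genes were higher and 23.4% lower. Tefm, a transcription elongation factor, was lower (-1.80 ± 0.22, edgeR adjusted p = 0.00032), as were Peo1, the helicase Twinkle (-0.82 ± 0.12), and Mterf1b, of the termination factor family (-2.29 ± 0.40). Tfb2m, an initiation factor, was higher (1.07 ± 0.17), while Polrmt and Tfam gave 0.03 ± 0.11 and -0.002 ± 0.13 and did not pass.

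Of 35 tested genes for processing, modification and decay of mitochondrial RNA, edgeR called none in the BRE comparison, where 2.97% of all genes were called. At an unadjusted p under 0.05 it gave 4 of the 35, beside 2817 of 15435 genes, and DESeq2 called 0. In KO 2 were higher and 0 lower, where 1.85% of all genes were higher and 3.18% lower. Those 2 were Fastkd3 (0.59 ± 0.11, edgeR adjusted p = 0.0284) and Ptcd1 (0.41 ± 0.09, edgeR adjusted p = 0.0436). In BRE-negative against FL 4 were higher and 14 lower, where 45.7% of all genes were called, with a median log2 fold change of -0.38 beside -0.005 over all genes. Among the lower were Grsf1, an RNA granule protein (-1.36 ± 0.10, edgeR adjusted p = 3.64e-05), Hsd17b10, a subunit of the enzyme that cuts tRNA 5′ ends (-0.86 ± 0.11), Lactb2 (-0.98 ± 0.12) and Nsun3, which modifies the methionine tRNA (-1.37 ± 0.20). Lrpprc and Slirp, which form a complex that stabilises mitochondrial mRNAs, were lower as well (-0.43 ± 0.12 and -0.37 ± 0.13, edgeR adjusted p = 0.0178 and 0.0403). Elac2, which cuts tRNA 3′ ends, gave 0.18 ± 0.14 and did not pass (edgeR adjusted p = 0.318).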

How the data were processed

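Tools named, per the submitters' processing notes, include featureCounts 1.4.6, STAR 2.4.1d, DESeq2 1.6.3, CASAVA 1.8.2 and FastQC 0.11.3, and GRCm38.p4 and mm10 are named as builds. Annotation release, strand setting and treatment of reads with several matches were not given in the sources used here. The authors deposited raw counts for 39179 genes and TPM values, a normalised signal that equals (count + 1) per length, scaled per library, within 0.1% (tested on the values). Members and gene lists were chosen with earlier results of these data known.

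Groups came from sample titles. Counts were tested with edgeR 4.0.16 (R 4.3.3): TMM, filterByExpr (minimum count 10, total 15), quasi-likelihood fit, Benjamini-Hochberg over all genes tested, adjusted p under 0.05. The BRE fit had the pair as a block, since the series states collection in pairs, and same-numbered libraries deviated together (correlations 0.706, 0.575 and 0.514). The other fits had none. SEs follow from fold change and F statistic. The fits were also run on simulated counts, which left out the likeness between KO replicates and so say nothing about its effect. No 2 libraries were identical. KO replicates 3 and 4 were most alike (median chi-square 1.23 per gene, other pairs 2.49 to 7.13) and were kept separate, as listed. KO replicates 1 and 2 gave 2.49, and either of them with replicate 3 or 4 gave 4.04 to 4.43. The KO libraries were counted as independent, which limits the SEs and p-values of KO against FL.

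Named with values were the rRNAs, the mRNAs and the tRNAs that edgeR tested in all 3 comparisons, and mt-Tg, chosen after its values were seen. From the nuclear lists Polrmt, Tfam, Lrpprc, Slirp and Elac2 were named in any case, with up to 4 called genes per list and comparison by adjusted p. Sequences, coordinates and copies came from GENCODE M21 (GRCm38) transcripts, searched with blastn 2.17.0 because no genome sequence was used here. Alternatives were DESeq2 1.42.0, limma 3.58.1 on log2(TPM + 1), also for genes of at least 1 mean TPM, and on log2(TPM + 0.1), RLE scaling, scaling without mitochondrial genes, other filters, 1 fit of all libraries, blocks, length and GC offsets and left-out libraries.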

Additional observations from a re-analysis of the deposited data

How the results depend on the processing

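For BRE-positive against BRE-negative, 0 members and 0 genes were called in 1 fit of all 12 libraries (516 genes at an unadjusted p under 0.05) and by limma on log2(TPM + 1) without (4189) and with (2679) the filter on mean TPM, against 6 and 459. limma on log2(TPM + 0.1) called 42 genes, no count filter 1010, and the replicate block with offsets for exon length and GC 303. DESeq2 called 7 members, RLE scaling, the 1 CPM filter and scaling without the mitochondrial genes 6 each. Leaving out 1 pair gave 200 to 2225 genes and 4 to 9 members. For KO against FL, DESeq2 called 2 members and 1510 genes, no count filter 2 members, and the 1 CPM filter and limma 0 members (limma 360, 136 and 198 genes for log2(TPM + 1), log2(TPM + 0.1) and the filtered values). Leaving out 1 library gave 0 to 2 members and 0 to 857 genes, with 0 genes without FL replicate 1 (1948 at an unadjusted p under 0.05). For BRE-negative against FL, leaving out 1 library gave 7 to 13 members and 4623 to 8247 genes. 13 members passed under RLE scaling, the 1 CPM filter and scaling without the mitochondrial genes.

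Without the replicate block the BRE comparison called 0 members and 0 genes. Replicate numbers do not tie the other groups (correlations of same-numbered libraries 0.254 and -0.413 for KO with FL, -0.022 and -0.027 for BRE-negative with FL). The replicate block there gave 0 members and 0 genes for KO against FL (2589 at an unadjusted p under 0.05), turned mt-Nd5 to -0.12, and gave 8 members and 5978 genes for BRE-negative against FL.

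Signs turned for members that had not passed. In the BRE comparison mt-Tm gave 0.058 by limma on log2(TPM + 1), with or without the filter, and 0.062 on log2(TPM + 0.1). Leaving out 1 pair gave -0.37 to 0.45 for mt-Tm, -0.30 to 0.054 for mt-Tt (above 0 without pair 3) and -0.46 to 0.045 for mt-Tp (above 0 without pair 2). For mt-Nd6 in KO against FL, leaving out 1 library gave -0.11 to 0.094, above 0 without FL replicate 2, KO replicate 1 or KO replicate 4. The difference of the mean mt-Rnr1 to mt-Rnr2 ratios, KO minus FL, ran from -0.11 (without KO replicate 2) to 0.061 percentage points, and was -0.039 without FL replicate 1. That of the mt-Nd6 to plus-strand mRNA ratios, BRE-positive minus BRE-negative, ran from -0.039 (without pair 1) to 0.048. The cause of these changes was not tested. At most 125 counts per library limit the tRNA values.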

Other observations

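The nuclear genome encodes the core partners of the mitochondrial subunits in the respiratory chain and ATP synthase. Of 21 tested by edgeR, 0 were higher and 0 lower in BRE-positive against BRE-negative cells, with a median log2 fold change of -0.13 beside -9e-04 over all genes, and 0 and 0 in KO against FL (median 0.10). Over all genes 2.97% and 5.03% were called in these comparisons. At an unadjusted p under 0.05 edgeR gave 11 and 7 of the 21, beside 2817 of 15435 and 3646 of 15933 genes. DESeq2 called 0 and 1 of the 21. In BRE-negative against FL 3 were higher and 3 lower, where 45.7% of all genes were called by edgeR. Cox4i1, a subunit of complex IV, was higher (0.71 ± 0.12, edgeR adjusted p = 0.00135), as were Ndufs1 of complex I (0.51 ± 0.13) and Atp5e of ATP synthase (0.33 ± 0.11). Atp5c1 of ATP synthase (-0.47 ± 0.11), Ndufs7 (-0.48 ± 0.12) and Ndufv2 (-0.36 ± 0.11) of complex I were lower.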
